A study of Mus musculus with 31 samples.

Results

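The 47 genes described here code for proteins of the synaptic vesicle, for the machinery that fuses it with the presynaptic membrane and for the proteins that retrieve it. They were chosen by name, as the probe sets of the array whose annotated gene symbol is one of the 47, out of 18193 genes with a probe set of their own. The choice was made with earlier results of these data known, so shares among them set beside those of all genes are descriptive. They have 116 probe sets, of which 99 passed the filter on low signal (above the median of the array on at least 3 arrays). Of the 47 genes 46 were tested, and Sv2c, whose 1 probe set failed the filter, was not. Where a gene has several tested probe sets, the brightest on average stands for it. The genes fall into 6 roles, with 11 vesicle proteins, 12 C2-domain proteins, 5 SNARE proteins, 6 SNARE regulators and disassembly proteins, 8 active zone and priming proteins and 5 proteins of endocytosis and recycling.

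RNA of the hippocampus was measured on Affymetrix GeneChip arrays in 31 male mice of the C57BL/6 strain, 1 mouse to an array. Glud1 Tg mice carry a transgene that raises glutamate dehydrogenase 1 in central neurons only, and they were compared with wt mice of the same ages. Both genotypes were sampled at 10 d, 4.5, 9, 14.5 and 20 months, with 3 mice in each group and 4 in the wt group at 10 d. The labels name no treatment, and the study examined what a lifelong moderate excess of glutamate release does to gene expression during development and aging. The Glud1 probe sets of the array read a part of the transcript outside the transgene and give no check of the genotype labels.

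A synaptic vesicle is filled with transmitter, docks at the active zone, is primed, and fuses when calcium enters the terminal. Fusion is driven by SNARE proteins, of which synaptobrevin (Vamp) sits on the vesicle and syntaxin and SNAP-25 on the plasma membrane. Several synaptotagmins, Syt1 and Syt2 among them, bind calcium through their C2 domains and trigger the event, while others such as Syt4, Syt11, Syt12 and Syt13 bind little or no calcium in 1 or both of these domains, complexins hold the assembled SNAREs ready, and NSF with its SNAP adaptors takes the used complexes apart before the membrane is recovered by clathrin and dynamin. In the rodent hippocampus most synapses form after birth, so the interval between 10 d and 4.5 months spans the main period of synapse formation.

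To show what lies upstream of genes that changed most with age, the promoters of 4 of them are printed from RefSeq (GRCm38.p6), each as 300 bases that begin 250 bases before the annotated start of the transcript. Capitals mark the matches to TGACGTCA (the cAMP response element), CAGCACC (a part of the RE1 element bound by the neuronal repressor REST), GGGCGG (the GC box), TATAAA (the TATA box) and GCGCATGC (the core of the NRF1 site), searched on both strands. The windows are Syn1 at chrX:20920869-20921168 (minus strand), Sncb at chr13:54766546-54766845 (minus), Vamp1 at chr6:125215331-125215630 (plus) and Bsn at chr9:108190334-108190633 (minus).
Syn1: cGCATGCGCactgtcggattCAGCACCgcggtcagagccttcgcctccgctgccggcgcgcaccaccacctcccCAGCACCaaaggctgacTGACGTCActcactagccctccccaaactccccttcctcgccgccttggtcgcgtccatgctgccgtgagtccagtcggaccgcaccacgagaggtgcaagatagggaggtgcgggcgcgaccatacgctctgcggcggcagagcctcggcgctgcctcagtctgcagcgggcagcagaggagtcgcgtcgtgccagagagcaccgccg
Sncb: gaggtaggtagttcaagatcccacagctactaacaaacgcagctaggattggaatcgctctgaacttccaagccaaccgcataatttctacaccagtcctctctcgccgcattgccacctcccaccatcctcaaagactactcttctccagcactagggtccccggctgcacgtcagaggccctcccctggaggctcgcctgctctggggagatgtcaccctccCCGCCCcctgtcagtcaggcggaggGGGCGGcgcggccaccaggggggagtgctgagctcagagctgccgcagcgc
Vamp1: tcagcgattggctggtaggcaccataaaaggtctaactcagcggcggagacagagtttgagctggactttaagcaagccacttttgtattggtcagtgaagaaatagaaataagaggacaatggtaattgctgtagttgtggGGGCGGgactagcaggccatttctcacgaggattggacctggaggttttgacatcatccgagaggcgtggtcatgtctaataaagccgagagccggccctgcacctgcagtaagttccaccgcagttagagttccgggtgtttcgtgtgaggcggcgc
Bsn: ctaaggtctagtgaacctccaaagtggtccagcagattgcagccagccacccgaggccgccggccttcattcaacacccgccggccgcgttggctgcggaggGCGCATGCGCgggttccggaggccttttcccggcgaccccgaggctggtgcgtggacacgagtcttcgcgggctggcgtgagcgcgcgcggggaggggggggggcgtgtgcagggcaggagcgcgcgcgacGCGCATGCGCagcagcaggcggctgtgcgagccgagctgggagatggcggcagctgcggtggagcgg

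Of the 47 genes 35 had 1 or more windows in the table, 46 windows in all. Syn1 was the gene printed here with most kinds of match, a cAMP response element starting at -159 from the start site, CAGCACC at -230 and -176, and the NRF1 core at -249. Bsn held the NRF1 core at -148 and -17, each time overlapping a match on the opposite strand, Sncb held GC boxes at -26 and -1 and Vamp1 held 1 at -108. No TATA box was found in any of the 4 windows. Over all member windows the GC box was found in 60.9%, against 35.7% of the 32851 windows of the table. The TATA box was found in 4.35% of member windows, both of Sv2b, against 13.6%, the NRF1 core in 6.52% against 2.71%, CAGCACC in 10.9% against 7.14% and the cAMP response element in 4.35% against 1.79%. The table also holds windows of non-coding genes, and a match is a string of letters and not a tested site.

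Between 10 d and 4.5 months most of the 46 tested genes rose. With both genotypes averaged, 35 of the 46 genes rose and 9 fell at an adjusted p under 0.05 (limma, Benjamini-Hochberg over all tested probe sets), while over all 12844 genes 31.2% rose and 35.5% fell. The median change was 0.66 on the log2 scale for the 46 genes and -0.04 for all genes. By role, the risen genes were 9 of 10 vesicle proteins, 8 of 12 C2-domain proteins, 4 of 5 SNARE proteins, 6 of 6 SNARE regulators, 5 of 8 active zone proteins and 3 of 5 recycling proteins. The rise was seen in each genotype. In Tg mice alone 32 rose and 7 fell, where 25.7% and 27.5% of all genes did, and in wt mice alone 34 rose and 8 fell, where 26.3% and 30.1% did. The same 32 genes rose in both genotypes. The change differed between the genotypes for 0 of the 46 genes by the limma contrast of the 2 changes (4 at an unadjusted p under 0.05), and 0% of all genes did.

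**Figure D1:**
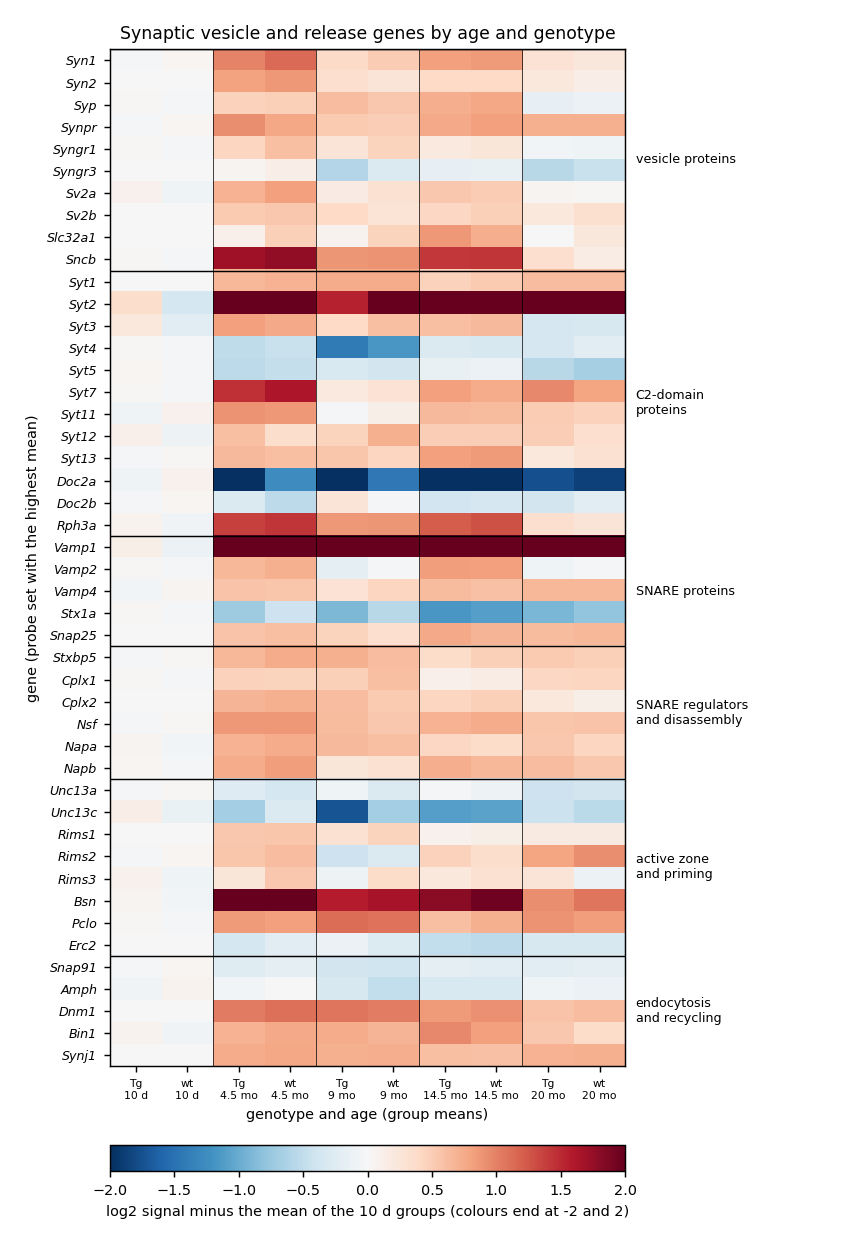
Mean log2 signal of each of the 46 tested genes (rows, by role) in the 10 groups of genotype and age (columns, Tg left of wt at each age), as the difference from the mean of both 10 d groups. Red marks higher and blue lower signal. Most rows turn red at 4.5 months, Doc2a turns blue, and several vesicle protein rows pale at 9 and 20 months.

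Among the vesicle proteins Sncb, beta-synuclein, changed most. Its normalized log2 signal was 12.20 to 12.58 (median 12.44) over the 6 mice at 4.5 months, against 10.50 to 10.85 (median 10.75) over the 7 mice at 10 d, a 3.32-fold rise (log2 1.73 ± 0.0635 SE, adjusted p = 7.62e-20 by limma). Syn1, which codes for synapsin I and tethers vesicles to the cytoskeleton, stood at 13.26 to 13.48 (median 13.35) at 4.5 months, against 12.13 to 12.49 (median 12.36) at 10 d, 2.08-fold higher. For both genes every mouse of 4.5 months lay above every mouse of 10 d. Synpr codes for synaptoporin, a relative of synaptophysin found at mossy fibre terminals, and was 11.97 to 12.31 at 4.5 months, against 11.03 to 11.45 at 10 d (log2 0.85 ± 0.0785). Sv2a, a vesicle membrane protein of the transporter family and the binding site of levetiracetam, was 11.99 to 12.22, against 11.16 to 11.55 (log2 0.76 ± 0.0437). Again no mice of the 2 ages overlapped. On the log2 scale Syn2 rose by 0.84 ± 0.0484, Sv2b by 0.53, Syp (synaptophysin) by 0.48 and Slc32a1, the vesicular transporter of GABA and glycine, by 0.29. Syngr3 did not pass the test (0.09 ± 0.0524, adjusted p = 0.128 by limma), while its paralogue Syngr1 rose by 0.51, and a second Syngr3 probe set fell by 0.57.

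The C2-domain proteins moved in both directions. Syt7, a slow, high-affinity synaptotagmin, stood at 12.33 to 12.76 (median 12.48) at 4.5 months, against 10.80 to 11.13 (median 10.97) at 10 d, 2.91-fold higher (log2 1.54 ± 0.0597, adjusted p = 2.83e-19 by limma). Rph3a (rabphilin) rose 2.64-fold, to 12.20 to 12.54 at 4.5 months, against 10.82 to 11.09 at 10 d. Syt1, the fast sensor of forebrain synapses, rose 1.6-fold, with 14.21 to 14.28 at 4.5 months and 13.48 to 13.63 at 10 d. The groups do not overlap for any of these 3 genes. Syt2, the fast sensor best known from hindbrain and some inhibitory terminals, had the largest fold (5.74, log2 2.52 ± 0.536), but its signal at 10 d scattered between 3.61 and 7.16 with a median of 6.54, below the array median of 6.84, so the size of that change is poorly set. Syt3 had a median of 9.09 at 4.5 months and 8.12 at 10 d, with the lowest adult mouse just above the highest young one (log2 0.79 ± 0.132). Syt11, Syt13 and Syt12 rose by 0.88, 0.63 and 0.48.

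Doc2a, a soluble C2 protein linked to spontaneous and asynchronous release, went the other way. It stood at 7.55 to 8.94 (median 8.52) at 4.5 months, against 9.86 to 10.20 (median 9.99) at 10 d, 3.08-fold lower (log2 -1.62 ± 0.16, adjusted p = 5e-10 by limma), with no overlap. Syt4 and Syt5 fell by 0.48 and 0.51. For Doc2b the probe set shown fell by 0.40 and its other one rose by 0.56, so no direction is given for the gene.

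Of the SNARE genes 4 rose and 1 fell. Vamp1, the synaptobrevin of fast-firing and spinal neurons, was 10.57 to 11.20 (median 10.97) at 4.5 months, against 8.34 to 8.76 (median 8.60) at 10 d, a 5.08-fold rise (log2 2.35 ± 0.0733, adjusted p = 2.33e-21 by limma). Vamp2, the main synaptobrevin of forebrain synapses, was 13.57 to 13.79 at 4.5 months, against 12.82 to 13.21 at 10 d, 1.61-fold higher. In both genes the ages do not overlap. Snap25, the plasma membrane SNARE that contributes a pair of helices to the complex, was 14.72 to 14.79 at 4.5 months, against 13.95 to 14.39 at 10 d (log2 0.58 ± 0.0513). Vamp4, a SNARE of endosomal and slow release pathways, rose by 0.56 ± 0.045. Stx1a, the plasma membrane syntaxin, was the 1 SNARE gene to fall, with 11.16 to 12.18 (median 11.59) at 4.5 months and 12.06 to 12.36 (median 12.17) at 10 d (log2 -0.56 ± 0.0928). The adult Stx1a values scattered widely and their highest value lay within the range of the young mice. A second Vamp2 probe set did not follow the first between these ages (-0.16 ± 0.0803, adjusted p = 0.0746 by limma).

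All 6 regulators rose, by 0.45 to 0.87. Nsf, the ATPase that takes SNARE complexes apart, was 14.09 to 14.19 at 4.5 months, against 13.13 to 13.38 at 10 d (log2 0.87 ± 0.0351). Its adaptor Napb (beta-SNAP) was 13.05 to 13.35, against 12.20 to 12.53 (log2 0.79 ± 0.0534), and Napa (alpha-SNAP) 12.17 to 12.39, against 11.44 to 11.70 (log2 0.72 ± 0.0398). The ages do not overlap in any of the 3 genes of this disassembly step. The complexins Cplx2 and Cplx1, which clamp and activate the SNARE complex, rose by 0.70 and 0.45, Cplx2 to 13.18 to 13.35 at 4.5 months, against 12.42 to 12.67 at 10 d. Stxbp5 (tomosyn), an inhibitor of SNARE assembly, rose by 0.70 on the probe set shown and fell by 0.38 on another.

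At the active zone 5 genes rose and 3 fell. Bsn (bassoon), a giant scaffold of the presynaptic cytomatrix, was 12.26 to 12.43 (median 12.37) at 4.5 months, against 9.71 to 10.62 (median 10.20) at 10 d, 4.58-fold higher (log2 2.20 ± 0.0899, adjusted p = 2.25e-18 by limma). Its relative Pclo (piccolo) was 11.97 to 12.25 at 4.5 months, against 10.97 to 11.41 at 10 d, on the probe set shown (log2 0.84 ± 0.0622), while another fell by 0.35. The Rab3-binding scaffold Rims2 was 10.31 to 10.66, against 9.60 to 10.13, and Rims1 11.83 to 12.15, against 11.37 to 11.58. The 3 Rims genes, Rims2, Rims1 and Rims3, rose by 0.59, 0.55 and 0.39. The priming factors Unc13a and Unc13c (Munc13-1 and Munc13-3) fell by 0.30 and 0.49, and the ELKS family scaffold Erc2 by 0.29. A second Unc13c probe set stood at 0.32 ± 0.167 (adjusted p = 0.0899 by limma). In recycling, Dnm1, the dynamin that cuts vesicles free, was 14.15 to 14.29 at 4.5 months, against 13.01 to 13.32 at 10 d, 2.09-fold higher. Synj1 (synaptojanin, a lipid phosphatase that strips the clathrin coat) was 13.19 to 13.30, against 12.36 to 12.57, and Bin1 (amphiphysin 2) 11.18 to 11.43, against 10.47 to 10.89. Both rose without overlap, by 0.76 and 0.73. Snap91 (AP180, a clathrin adaptor) fell by 0.21, and Amph stood at -0.03 ± 0.0648.

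**Figure D2:**
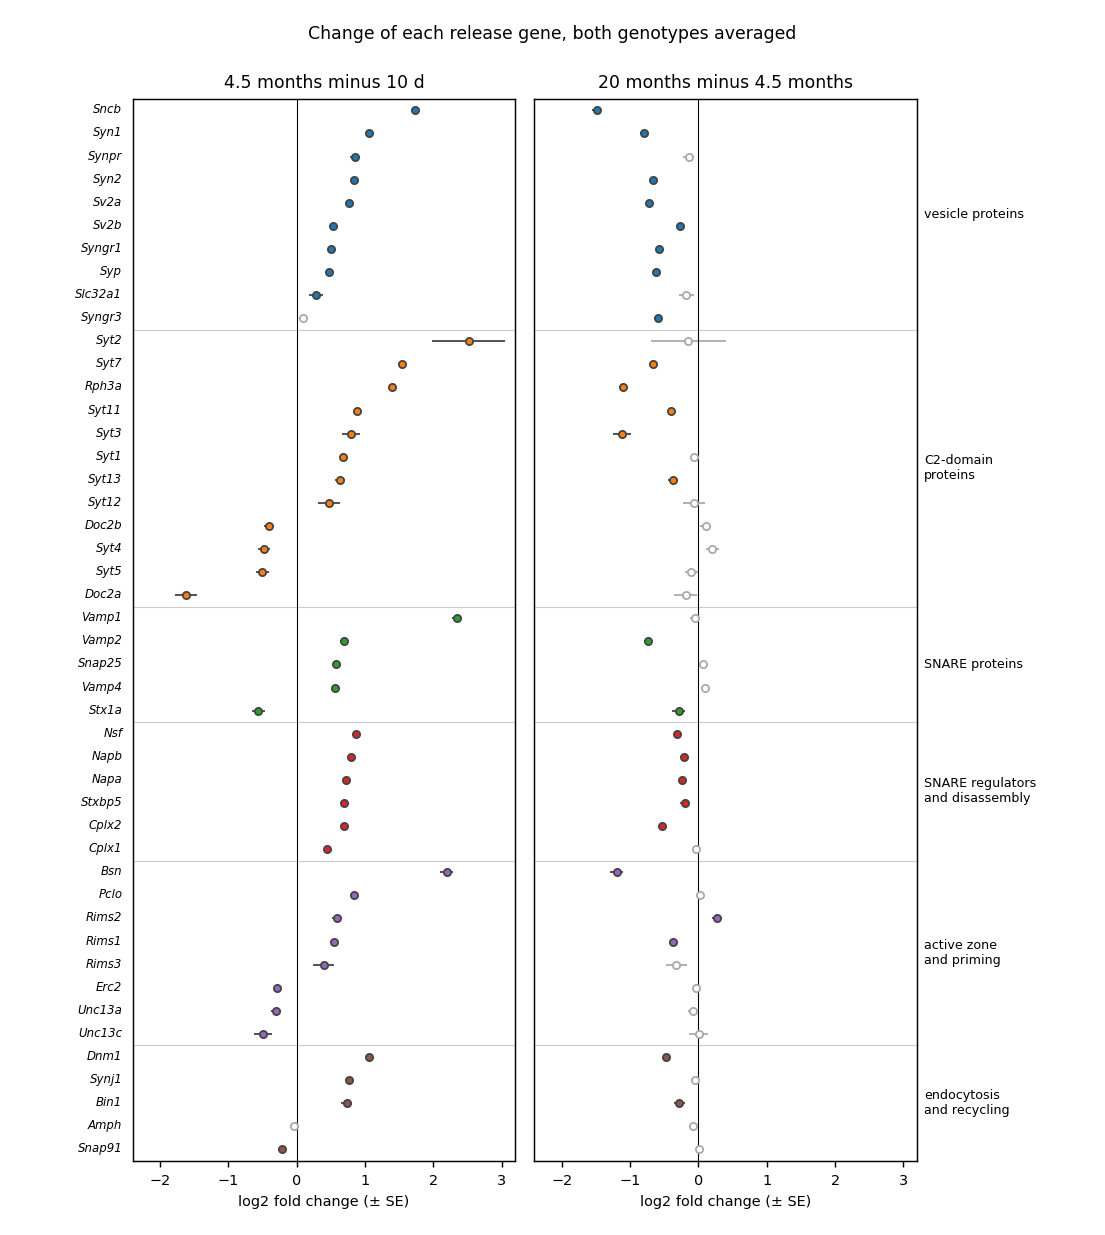
Log2 fold change (x axis, ± SE) of each of the 46 genes, both genotypes averaged, at 4.5 months against 10 d (left) and at 20 against 4.5 months (right), with genes by role in the order of the left panel. Filled points have an adjusted p under 0.05 and open points do not. On the left 35 genes are filled to the right of 0, and on the right 24 are filled to its left and 1, Rims2, to its right.

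Between 4.5 and 20 months the genes that changed mostly fell. At 20 months 24 genes were lower and 1 was higher than at 4.5 months, while 19.9% of all genes fell and 22.4% rose. The median change was -0.22 for the 46 genes and 0.03 for all genes. The falls lay mainly in 8 of 10 vesicle proteins and 5 of 6 SNARE regulators, with 5 of 12 C2-domain proteins, 2 of 5 SNARE proteins, 2 of 8 active zone proteins and 2 of 5 recycling proteins. In Tg mice alone 20 fell and 0 rose, where 12.7% and 12.1% of all genes did, and in wt mice alone 25 fell and 1 rose, where 15.4% and 15.8% did. The same 19 genes fell in both. The contrast of the 2 changes called 0 of the 46 genes (6 at an unadjusted p under 0.05), and 0.00779% of all genes. This comparison uses the same 6 mice of 4.5 months as the one with 10 d, so a gene that is high in those mice adds to both changes.

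Sncb fell most among the vesicle proteins, to 10.76 to 11.15 (median 10.92) at 20 months, against 12.20 to 12.58 at 4.5 months, 2.81-fold lower (log2 -1.49 ± 0.0656, adjusted p = 7.03e-17 by limma). Syn1 was 12.52 to 12.66 at 20 months, against 13.26 to 13.48 at 4.5 months, 1.74-fold lower, and Sv2a was 11.34 to 11.44, against 11.99 to 12.22, 1.65-fold lower. In these 3 genes the mice of the 2 ages do not overlap. Syn2, Syp, Syngr3 and Syngr1 fell by 0.66, 0.62, 0.59 and 0.58. Of the C2-domain proteins, Syt3 fell by 1.12 ± 0.137, Rph3a by 1.11 ± 0.0518 and Syt7 by 0.67 ± 0.0617. Syt3, a synaptotagmin with high calcium affinity, was 7.24 to 8.44 at 20 months, against 8.83 to 9.21 at 4.5 months. Rph3a, a Rab3 effector, was 11.17 to 11.44, against 12.20 to 12.54, and Syt7 was 11.62 to 11.97, against 12.33 to 12.76. In each of these 3 the older mice all lay below the younger ones. Vamp2 was 12.91 to 13.04 at 20 months, against 13.57 to 13.79 at 4.5 months, 1.67-fold lower, and Bsn was 11.04 to 11.33, against 12.26 to 12.43, 2.29-fold lower. Neither gene's ages overlap. Cplx2 was 12.59 to 12.95 at 20 months, against 13.18 to 13.35 at 4.5 months, Nsf 13.78 to 13.86, against 14.09 to 14.19, and Dnm1 13.63 to 13.86, against 14.15 to 14.29, also without overlap. Rims1 was 11.56 to 11.77, against 11.83 to 12.15, and Napa 11.93 to 12.14, against 12.17 to 12.39. Bin1 (10.86 to 11.32, against 11.18 to 11.43) and Stx1a (11.22 to 11.52, against 11.16 to 12.18) overlapped between the ages although both passed the test. On the log2 scale Cplx2, Dnm1, Rims1, Nsf, Bin1, Napa and Napb fell by 0.53, 0.47, 0.37, 0.31, 0.28, 0.24 and 0.21, and Stx1a by 0.29 ± 0.0958. The Stx1a call was lost without Tg mouse 2 (-0.23) or wt mouse 3 (-0.18) of 4.5 months.

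Some core genes did not pass the test between these ages. Syt1 (-0.07 ± 0.0348), Snap25 (0.06 ± 0.0529), Vamp1 (-0.05 ± 0.0757), Cplx1 (-0.03 ± 0.043), Pclo (0.03 ± 0.0643) and Synj1 (-0.06 ± 0.0394) were among them on the probe set shown. On other probe sets, 1 of 3 of Cplx1 and 1 of 3 of Synj1 were called as lower, with lowest changes of -0.35 and -0.28. Of Pclo 1 of 3 was called as higher, with a highest change of 0.33. On the probe sets shown Vamp2 and Cplx2 fell and their paralogues Vamp1 and Cplx1 were not called. The difference between paralogues was not tested. Rims2 was the 1 gene that rose, 1.2-fold, with 10.62 to 10.87 at 20 months and 10.31 to 10.66 at 4.5 months, 2 ranges that overlap. That probe set was the only 1 called of the 4 tested for Rims2, and the lowest of the others stood at -0.86 without being called.

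Probe sets of 1 gene did not always move together. Of the 30 genes with several tested probe sets, 4 had probe sets called in opposite directions between 10 d and 4.5 months (Syt7, Doc2b, Stxbp5 and Pclo) and 3 did between 4.5 and 20 months (Syt7, Vamp2 and Stxbp5), and all probe sets of a gene were called the same way in 20 and 7 of the 30. For Syt7, 3 of 4 probe sets rose and then fell, and the fourth fell by 0.71 and then rose by 0.39. The second Vamp2 probe set rose by 0.37 ± 0.0829 at 20 months, where the first fell by 0.74, and was highest at 14.5 months, with 12.55 to 12.68 in those 6 mice and at most 11.82 in any other mouse. Second probe sets of Syt1 and Vamp1 rose by 0.69 and 0.92 between 4.5 and 20 months, and a second one of Snap25 fell by 1.33 after a rise of 1.97. With the median over the tested probe sets of the gene, the Pclo change between 10 d and 4.5 months was -0.35. Which transcript end or form each probe set reads was not examined here.

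The course within adult life was not a steady decline. At 9 months 23 genes were lower and 3 higher than at 4.5 months (24.3% and 20.6% of all genes). At 14.5 months 20 were higher and 14 lower than at 9 months (26.3% and 21.9% of all genes), and at 20 months 21 were lower and 10 higher than at 14.5 months (15.3% and 18.3%). A down, up and down course, with all 3 steps called, was found, on the probe sets shown, in 9 of the 46 genes (Syn1, Syngr3, Sv2a, Sncb, Syt11, Rph3a, Vamp2, Nsf and Bsn) and in 6.62% of all genes. The opposite course was found in 1 gene, Pclo, and in 7.4% of all genes. This pair of patterns was defined after the values were seen. Neuronal markers moved likewise over the same steps. Of Rbfox3, Map2, Eno2 and Nefl 4 of 4 fell at 9 months, 3 of 4 rose at 14.5 months while Rbfox3 fell again, and 3 of 4 fell at 20 months, with a summed log2 signal of 15.49 to 15.68, 15.21 to 15.45, 15.51 to 15.67 and 15.28 to 15.39 at 4.5, 9, 14.5 and 20 months. Of the 5 thalamic markers 3 fell at 9 months (median -1.15), 5 rose at 14.5 months (median 0.74) and 0 were called at 20 months. The part of these shifts in the course was not tested.

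Vamp2 is 1 example of the course. On the probe set shown, its median log2 signal was 13.04 at 10 d, 13.72 at 4.5 months, 12.92 at 9 months, 13.86 at 14.5 months and 12.95 at 20 months. The mice of 9 months (12.64 to 13.06) and of 20 months (12.91 to 13.04) all lay below the mice of 4.5 and 14.5 months (13.57 to 13.87), and both sets overlapped the mice of 10 d (12.82 to 13.21). The second Vamp2 probe set went the other way in the first step, with 11.23 to 11.82 at 9 months, against 10.80 to 11.13 at 4.5 months (log2 0.70 ± 0.0829), and like the first it rose at 14.5 months (0.99) and fell at 20 months (-1.32). Sncb had medians of 10.75, 12.44, 11.56, 12.12 and 10.92 in the same order of ages, and Bsn of 10.20, 12.37, 11.76, 12.04 and 11.16. Rims2 had its lowest median at 9 months (9.56, against 10.48 at 4.5 months and 10.75 at 20 months). Syp, the most used marker of synaptic vesicles, followed another course, with medians of 13.14, 13.24, 13.40 and 12.49 at 4.5, 9, 14.5 and 20 months, so that its fall lay between the last 2 ages. Syt4, a synaptotagmin of dense-core vesicles, was lowest at 9 months on the probe set shown (10.42 to 11.04, against 11.44 to 12.02 in the other adult mice), but its second probe set was higher at 9 months (11.17 to 11.49) than at 4.5 months (10.86 to 11.40), by 0.20 ± 0.0558, so no direction is given for that step. On the probe set shown Snap25 medians lay between 14.57 and 14.86 at the 4 adult ages, near the top of the normalized scale. Its fall at 9 months (1.14-fold) and its rise at 14.5 months (1.26-fold) were both called. Whether signals so near the top are limited in range was not tested. The second Snap25 probe set fell by 1.33 between 4.5 and 20 months. Over the 5 ages an F test called 43 of 46 genes in Tg mice and 46 of 46 in wt mice, where 74% and 75.6% of all genes were called.

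**Figure D3:**
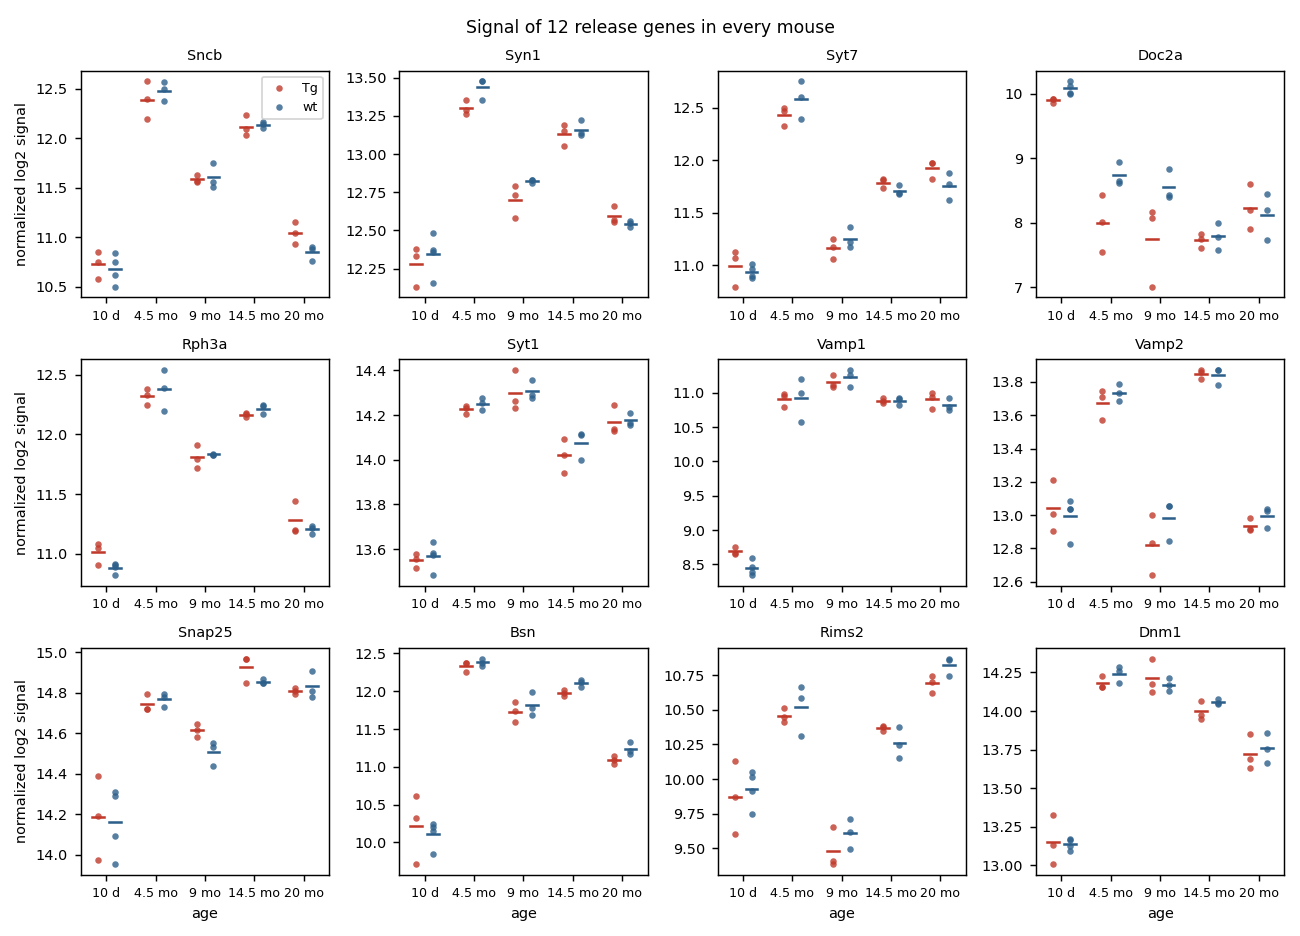
Normalized log2 signal (y axis) in every mouse by age (x axis) for 12 genes, with Tg mice in red left of wt mice in blue and a bar at each group mean. Sncb, Syn1, Rph3a, Vamp2 and Bsn are high at 4.5 and 14.5 months and lower at 9 and 20 months, and Doc2a is highest at 10 d. Syt1, Vamp1 and Snap25 keep close to their adult level on the probe sets drawn, while another probe set of each changed between 4.5 and 20 months.

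Control probe sets of the arrays moved with age too. The log2 ratio of the 3' to the 5' beta-actin probe set, a quality measure of the RNA and its labelling, was 0.36 to 0.45 at 10 d, 0.35 to 0.46 at 4.5 months, 0.71 to 0.96 at 9 months, 0.32 to 0.40 at 14.5 months and 0.51 to 0.55 at 20 months. Among the adult ages it was thus highest at the 2 at which the 9 genes above were low. At 10 d the ratio was like that at 4.5 months, and all of the 9 genes except Syngr3 and Vamp2 had their lowest mean signal at 10 d. The mean ratio of 0.53 at 20 months differed from 0.42 at 4.5 months (exact two-sided permutation test, p = 0.00216, the smallest that 6 mice against 6 allow). The same ratio for Gapdh was -0.08 to 0.02 at 4.5 months and at most -0.14 at each other age. With the beta-actin ratio as a covariate, chosen after the data were seen, 9 genes fell between 4.5 and 9 months (1.46% of all genes) and 1 rose between 9 and 14.5 months (0.319%). Fewer of all genes were called in that fit, and standard errors were larger. The median change of the 46 genes at 9 against 4.5 months was -0.34 with the covariate and -0.19 without it, and the median standard error 0.226 and 0.0619. At 20 against 4.5 months 24 genes fell and 0 rose in the same fit (15% and 14.5% of all genes), with a median of -0.31. With the Gapdh ratio as a covariate 11 genes fell at 20 months (6.16% of all genes), with a median of -0.26 and a median standard error of 0.164. Which arrays were labelled together is not given in the sources used here, so age, RNA quality and a labelling batch cannot be told apart.

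With the mice of 9 months in place of those of 4.5 months, 31 genes rose and 11 fell against 10 d, where 29.7% and 37.5% of all genes did, and the 31 were all among the 35. Against 9 months 23 genes fell and 11 rose at 20 months, where 17.9% and 21.7% of all genes did, so that the share of these genes that rose was near that of all genes. Of the 24 genes that fell against 4.5 months 15 also fell against 9 months, among them Syn1, Sncb, Sv2a, Syp, Rph3a, Syt3, Cplx2, Bsn and Dnm1, and 3 rose (Syt7, Syt11 and Napb). Vamp2 at 20 months was 0.06 above its level at 9 months.

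**Figure D4:**
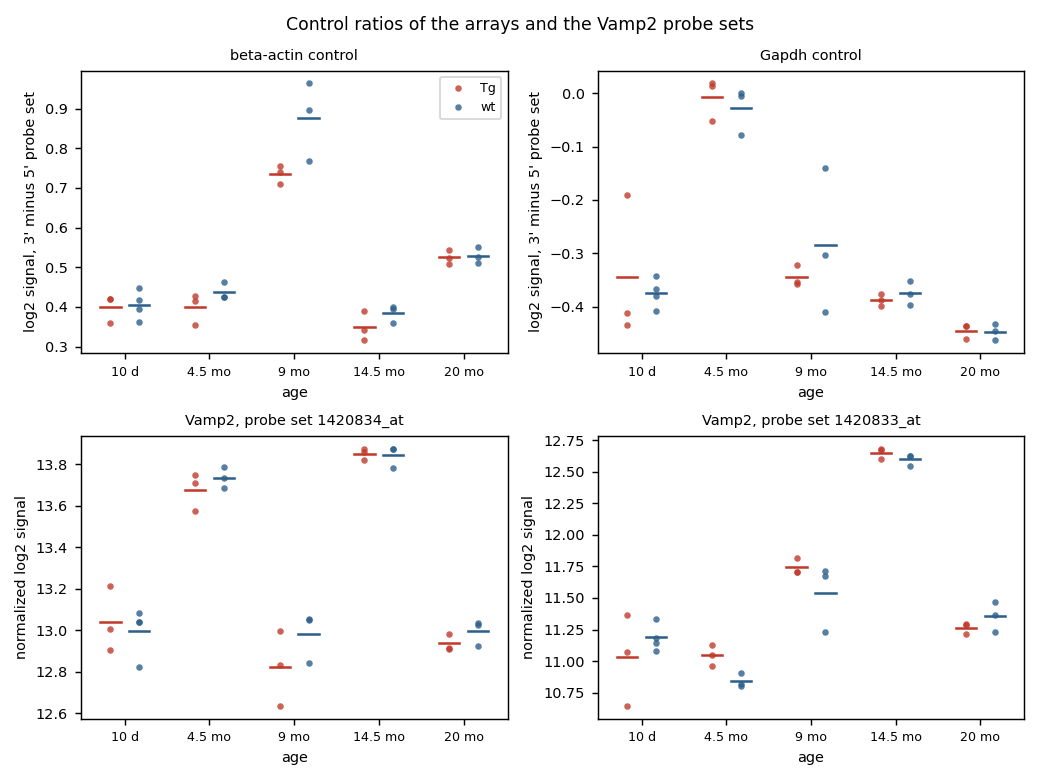
Upper panels, log2 ratio of the 3' to the 5' probe set of the beta-actin and Gapdh controls (y axis) in every array by age (x axis). Lower panels, normalized log2 signal of the 2 Vamp2 probe sets in the same mice (Tg red and left, wt blue, bars at group means). The beta-actin ratio is highest at 9 months, the Gapdh ratio is highest at 4.5 months, 1 Vamp2 probe set is high at 4.5 and 14.5 months and the other at 14.5 months.

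Markers of cell types moved over the same ages. Of the 4 neuronal markers, Rbfox3 and Eno2 rose by 0.87 and 1.31 between 10 d and 4.5 months and fell by 0.52 and 0.46 at 20 months, while Nefl rose by 0.13 and fell by 0.21 and Map2 stood at -0.05 and 0.04. Their summed signal was 15.49 to 15.68 at 4.5 months, against 15.07 to 15.24 at 10 d, and 15.28 to 15.39 at 20 months. The 5 tested of 6 oligodendrocyte markers rose, with a summed log2 signal of 15.57 to 15.99 at 4.5 months against 12.50 to 13.50 at 10 d, and the 3 markers of immature neurons fell, to 11.69 to 12.05, against 14.23 to 14.42. Choroid plexus markers scattered between 9.51 and 15.47 among the mice of 4.5 months, between 10.48 and 15.37 at 10 d and between 12.19 and 15.55 at 9 months. They ran from 14.98 to 15.35 at 14.5 months and from 14.14 to 15.47 at 20 months. In whole tissue fewer cells of a type and less RNA per cell cannot be told apart, and the part of these shifts in the changes above was not tested. With maturation 3 of 4 dentate markers rose (median 1.09) and 4 of 6 interneuron markers rose and 1 fell (median 0.60), while of the CA1 markers 1 rose and 2 fell (median -0.31). Of the markers of the hippocampal fields 4 of 4 dentate, 3 of 3 CA1, 3 of 3 CA2 and 3 of 3 CA3 genes passed the filter on low signal, as did 5 of 5 of the thalamus and 2 of 4 of the striatum.

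Genes of the same pathway that are not among the 47 moved less uniformly. Of 62 tested genes for other release and recycling proteins 31 rose and 20 fell between 10 d and 4.5 months, with a median of 0.10. Slc17a7, the vesicular glutamate transporter of hippocampal principal cells, rose by 2.10 ± 0.069 SE, Pacsin1 by 2.04 ± 0.048 and Rimbp2 by 2.04 ± 0.076, while Slc17a6, the transporter of subcortical neurons, fell by 1.68 ± 0.215 and Syn3 by 1.19 ± 0.102. At 20 against 4.5 months 17 of the 62 rose and 18 fell. Slc17a7 fell by 1.92 ± 0.071 in that comparison and Rimbp2 by 1.62 ± 0.078, and the widely expressed Snap23 and Stxbp3 rose by 0.52 and 0.60.

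Few of these genes differed between Tg and wt mice at any age. At 10 d, 4.5, 14.5 and 20 months 0 of the 46 genes were called (4, 7, 0 and 1 at an unadjusted p under 0.05), where 0.00779%, 0%, 0% and 0.0389% of all genes were. The mean difference over ages called 0 (6 unadjusted, 0.0156% of all genes) and the interaction of age and genotype 0 (4 unadjusted, 0.0623% of all genes). At 9 months, where 2.99% of all genes were called, 2 of the 46 were, both lower in Tg mice, as were 2.2% of all genes. These tests rest on 3 mice a group, or 3 against 4, and a difference that missed the threshold is not shown to be absent.

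Unc13c codes for Munc13-3, a priming factor best known from the cerebellum. At 9 months its log2 signal was 8.30, 8.08 and 8.21 in Tg mice, against 9.35, 9.06 and 9.32 in wt mice, so that all Tg mice lay below all wt mice, 2.06-fold lower (log2 -1.05 ± 0.191 SE, adjusted p = 0.00335 by limma). A second probe set read 6.80, 6.73 and 5.69 in Tg mice and 7.82, 7.40 and 7.49 in wt mice (log2 -1.17 ± 0.244, adjusted p = 0.00769 by limma). All 3 Tg values of that probe set lay below the array median of 6.84, so the size of its difference is poorly set. The difference on the first probe set was 0.27 at 10 d, -0.40 at 4.5 months, -0.04 at 14.5 months and 0.10 at 20 months, none of them called, and the interaction did not pass (adjusted p = 0.123 by limma). Fitted on the arrays of 9 months alone the adjusted p was 0.121 by limma, and with the beta-actin ratio as a covariate the value was -1.13 with an adjusted p of 0.0688.

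Syngr3, synaptogyrin 3, a vesicle membrane protein, was 10.66, 10.87 and 10.85 in Tg mice and 11.13, 11.15 and 10.98 in wt mice at 9 months, 1.23-fold lower (log2 -0.29 ± 0.0765, adjusted p = 0.0302 by limma), again with no overlap. The call was lost without Tg mouse 1 (-0.23, adjusted p = 0.115 by limma), wt mouse 1 (-0.27, 0.0693) or wt mouse 2 (-0.26, 0.101), on the arrays of 9 months alone (-0.29, 0.346) and with the beta-actin covariate (-0.20, 0.453). A second probe set of the gene, at -0.29 ± 0.12, did not pass (adjusted p = 0.183 by limma). Doc2a was just outside the threshold, with 8.16, 7.01 and 8.07 in Tg mice and 8.40, 8.83 and 8.43 in wt mice at 9 months (log2 -0.81 ± 0.234, adjusted p = 0.0509 by limma). Without Tg mouse 2, the lowest, its value was -0.44. At 4.5 months Doc2a was 8.42, 8.01 and 7.55 in Tg mice and 8.64, 8.62 and 8.94 in wt mice (log2 -0.74 ± 0.234, adjusted p = 0.63 by limma), and at 14.5 and 20 months the difference was -0.06 and 0.11. At 10 d it was 9.92, 9.92 and 9.86 in Tg mice and 9.99, 10.20, 10.02 and 10.11 in wt mice (log2 -0.18 ± 0.219). All Tg mice lay below all wt mice at 10 d, 4.5 and 9 months and the genotypes overlapped at the other ages, and neither these differences nor the interaction passed the test (adjusted p = 0.476 by limma for the interaction). At 10 d Vamp1 was 8.76, 8.65 and 8.66 in Tg mice and 8.34, 8.60, 8.39 and 8.46 in wt mice, without overlap and without passing the test (log2 0.25 ± 0.1, adjusted p = 0.572 by limma). The probe set of Syt7 that runs against the others was higher in Tg mice at 9 months (0.51 ± 0.108, adjusted p = 0.0087 by limma), and the 3 remaining Syt7 probe sets were not called. Other members that were not called also had no overlap at 9 months. Syn1, Syngr1, Sv2a, Slc32a1, Syt3, Syt11, Vamp4 and Stx1a were lower in Tg mice, and Snap25, Cplx2, Nsf and Unc13a were higher. Such separation was also seen at the other ages. At 10 d Sv2a was higher in Tg mice without overlap. At 4.5 months Syn1, Syn2 and Syngr1 were lower and Synpr and Syt13 higher. At 14.5 months Stxbp5, Nsf, Bsn and Pclo were lower and Vamp4 and Napa higher, so that Nsf and Vamp4 lay opposite to 9 months. At 20 months Bsn was lower and Sncb higher. The share of all genes without overlap was not computed.

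**Figure D5:**
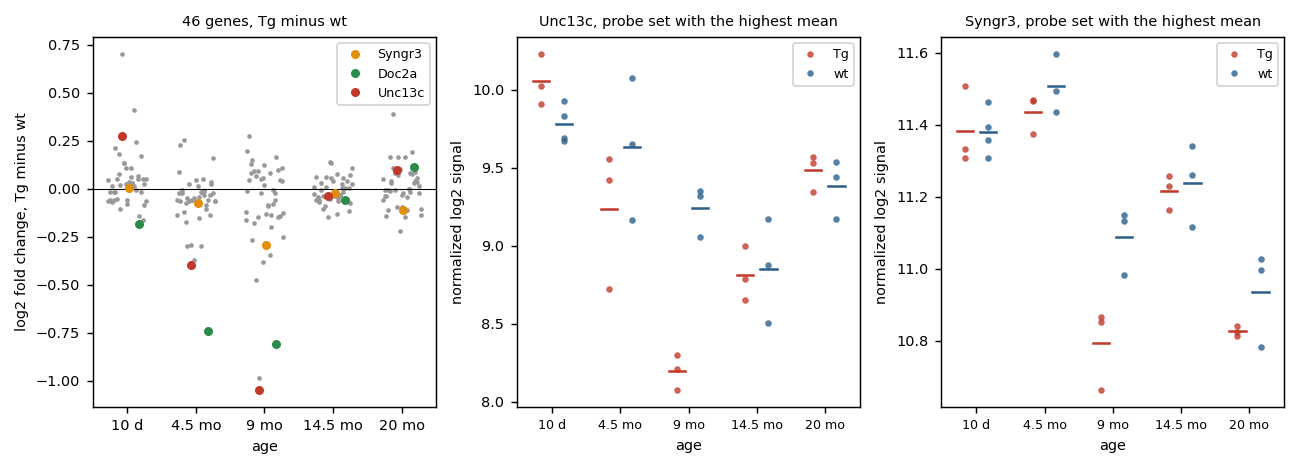
Left, log2 fold change of Tg against wt mice (y axis) for each of the 46 genes at each age (x axis), with Unc13c, Syngr3 and Doc2a in colour. Middle and right, normalized log2 signal of Unc13c and Syngr3 in every mouse by age (Tg red and left, wt blue, bars at group means). At 9 months the 3 Tg mice lie below the 3 wt mice for both genes.

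Other values differed between the genotypes at 9 months as well. The beta-actin ratio was 0.73 on average in Tg mice and 0.88 in wt mice (exact two-sided permutation test, p = 0.1, the smallest that 3 against 3 allow). Of the 62 other pathway genes 4 were called, all lower in Tg mice: Slc17a6 (-1.16 ± 0.314), Rims4 (-0.62 ± 0.166), Rab3b (-0.60 ± 0.171) and Rab27b (-0.38 ± 0.0766). Of the 4 markers of dentate granule cells, Dsp (1.11) and Prox1 (0.77) were called as higher in Tg mice, Tdo2 (0.78) and C1ql2 (0.07) were not, and their summed log2 signal was 11.76 to 11.83 in Tg mice and 11.07 to 11.60 in wt mice. Of the 5 thalamic markers Slc17a6 was the 1 that was called. The others stood at 0.44 (Tcf7l2), 0.42 (Rgs16), 0.07 (Lef1) and -0.01 (Prkcd) in Tg against wt mice, and the sum of the list, 10.07 to 10.64 in Tg mice and 10.49 to 10.92 in wt mice, was lower in Tg mice through Slc17a6. Of the 6 interneuron markers, Gad2 was lower in Tg mice (-0.45), and their sum was 14.04 to 14.30 in Tg mice and 14.29 to 14.51 in wt mice. The 5 astrocyte markers summed to 14.46 to 14.54 in Tg mice and 14.56 to 14.67 in wt mice, without overlap, with 0 of the 5 called (2 at an unadjusted p under 0.05 by limma). The 5 choroid plexus markers summed to 12.19 to 15.55 in Tg mice and 15.24 to 15.36 in wt mice, with 0 called (0 unadjusted). The part of these values in the Unc13c and Syngr3 differences was not tested.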

How the data were processed

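Hippocampal total RNA of 31 mice was hybridized by the authors to 1 GeneChip array each. The deposited table holds linear signal intensities that, per the labels, the authors made with MAS5 (version not given in the sources used here). The trimmed mean of each array is 500, array medians run from 91.87 to 140.3, and no detection calls were used. The study's methods name RMA on the image files, which were not used here, so values can differ from those it analysed.

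After 64 control probe sets were set aside, the log2 signals of 45037 were quantile normalized across the 31 arrays. Probe sets above the array median on at least 3 arrays (26877) were fitted with limma 3.58.1 in R 4.3.3, with a mean for each of 10 groups and moderation with a trend and robustly. P values were adjusted by Benjamini-Hochberg over the tested probe sets and called under 0.05. The fit was tested on simulated data. Arrays of 1 group correlated at 0.891 or more, and precision is limited by the 3 or 4 mice of a group. The annotation lists 34945 probe sets for 1 gene, 932 for several and 9160 for none, and no gene was named from the last 2 kinds. The deposited series has 4 wt mice at 10 d where the study's methods give 3 in each group, and all were used.

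The members, the 6 roles and the other lists were chosen with earlier results of these data known. Named are, in each role, the 3 members that changed most in each age comparison, those called between genotypes, the 3 with the highest mean signal (Snap25, Syt1 and Dnm1), their paralogues, and members with disagreeing probe sets. Alternatives varied the normalization, offset, filter, moderation, covariates, probe set rule, threshold, age of young adults and single mice. Replicate numbers of Tg and wt mice name no shared litter or day.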

Additional observations from a re-analysis of the deposited data

Results flagged for a closer look

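In the group of 4 wt mice at 10 d, 6 of the 46 genes had 1 mouse whose distance from the nearest of the others, divided by the range of the group, exceeded the 95% limit for 4 samples. These ratios were 0.831 for Vamp2, 0.899 for Cplx2, 0.831 for Napb, 0.847 for Pclo, 0.943 for Snap91 and 0.954 for Bin1. Chance flags about 1 in 20 such groups. The outlying mouse was wt mouse 3 for Vamp2 (12.82, the nearest other 13.04), Napb (12.23 and 12.34) and Snap91 (13.33 and 13.41), wt mouse 1 for Cplx2 (12.49 and 12.58) and wt mouse 4 for Pclo (10.97 and 11.28) and Bin1 (10.62 and 10.47). Groups of 3 mice were not examined in this way.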

How the results depend on the processing

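The 2 counts that lead the report, 35 genes risen between 10 d and 4.5 months and 24 fallen at 20 months, ran from 34 to 35 and from 23 to 25 when any 1 mouse was left out. The Gapdh ratio as a covariate gave 30 genes risen and 4 fallen between 10 d and 4.5 months (20.3% and 19.6% of all genes). The median standard error there was 0.135, against 0.06 without the covariate. At 20 months that fit gave 0 risen and 11 fallen (4.38% and 6.16% of all genes) and a Stx1a change of 0.36. Smaller shifts of a count are not all listed below. Where a setting of this section has no share of all genes beside its counts, that share was not computed. A fold of 1.3 with an adjusted p of 0.01 gave 0 risen and 15 fallen at 20 months, 1 and 14 at 9 against 4.5 months, 9 and 4 at 14.5 against 9 months, 2 and 12 at 20 against 14.5 months, and 1 gene between Tg and wt at 9 months. The beta-actin ratio, chosen after the data were seen, gave 0 risen at 20 against 4.5 months (14.5% of all genes). It gave 0 and 9 at 9 months (0.514% and 1.46%) and 1 and 0 at 14.5 months (0.319% and 0.179%). At 20 against 14.5 months 0 rose and 17 fell (5.01% and 7.66%). Between Tg and wt at 9 months it called 0 genes, and the share of all genes was not computed. The median over probe sets gave 4 risen at 20 against 4.5 months, 6 fallen at 14.5 months, and changes of -0.35 for Pclo up to 4.5 months and -0.013 for Rims2 at 20 months. Arrays without quantile normalization gave 9 risen at 9 months. The arrays of 9 months alone gave 0 genes between Tg and wt. With 9 in place of 4.5 months 11 rose at 20 months (21.7% of all genes). In that setting the changes of Vamp2 (-0.12) and Rims2 (-0.36) against 10 d and of Syt7 (0.63), Vamp2 (0.063) and Napb (0.30) at 20 months turned in sign. The causes were not tested beyond what each setting itself changes.

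With 1 mouse left out the genes risen at 20 against 4.5 months ran from 1 to 2 (2 without Tg mouse 2 of 10 d, Tg mouse 1 or wt mouse 2 of 20 months), those risen at 9 months from 3 to 5 (5 without Tg mouse 2 of 9 months) and those risen at 20 against 14.5 months from 6 to 10 (6 without Tg mouse 2 or wt mouse 1 of 14.5 months). Between Tg and wt the called genes ran from 0 to 1 at 10 d (1 without Tg mouse 2), from 1 to 3 at 9 months (1 without wt mouse 1 or 2), and from 0 to 1 for the interaction (1 without wt mouse 1 of 4.5 months). The Stx1a fall at 20 months lost its call without Tg mouse 2 (-0.23) or wt mouse 3 (-0.18) of 4.5 months.

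Same-numbered Tg and wt mice did not deviate together over the tested probe sets as a whole (r from -0.112 to 0.0549, 0 of 15 pairs above 0.1). A shared litter or day that moves few genes could not be seen in this way, so pairing remains unknown. With the replicate number as a block the counts stayed at 35 and 9 between 10 d and 4.5 months, 1 and 24 at 20 months and 2 between Tg and wt at 9 months, and it changed no other count.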
